A study of Mus musculus with 18 samples.

Results

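The microRNAs miR-7 and miR-375 were followed across brain cell fractions of mice as 3 mature species, mmu-miR-7a-5p, mmu-miR-7b-5p and mmu-miR-375-3p. The members were taken by name from the mature miRNA rows of the small RNA count table, and they are 3 of 1978 such rows and of 203513 rows in all. All 3 were found in the table. The mice were homozygous Atxn2-CAG100-KIN (KIN), which carry an expanded CAG repeat knocked into the endogenous Atxn2 gene, or wild type (WT), all on a C57BL/6 background and 10 months old. Each brain was dissociated and sorted with magnetic beads in sequence, first for microglia (CD11b beads) and then for astrocytes (ACSA-2 beads). Neurons were what remained after a cocktail against other cells and CD31 beads, which bind endothelium, had been applied. There were 6 groups of 3 libraries, 1 for each fraction and genotype. The mutation was present in every cell type, so a KIN difference in a fraction cannot be assigned to the mutation in that fraction's own cells.

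A microRNA is a short RNA that guides an Argonaute protein to messenger RNAs, and the bases near its 5′ end, called the seed, do most of the pairing. miR-7 is an ancient microRNA of neurosecretory cells, best known in brain for its link to the circular RNA Cdr1as, which binds it, and to the long non-coding RNA Cyrano, which destroys it. miR-375 is best known from pancreatic islets, where it limits insulin secretion and supports beta cell mass, and it is also found in pituitary and other secretory cells. Both are known from hormone-secreting cells, which is why they are described together.

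The sequences show why miR-7a and miR-7b are counted as a family while miR-375 stands alone. They are written as in the deposited table, with T for U, and capitals mark the seed, bases 2 to 8.
mmu-miR-7a-5p: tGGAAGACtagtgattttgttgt
mmu-miR-7b-5p: tGGAAGACttgtgattttgttgtt
mmu-miR-375-3p: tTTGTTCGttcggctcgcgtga
The miR-7 pair shared the seed GGAAGAC, which no other mature miRNA row had. Over their common length the pair differed by 1 substitution, A10T, read from miR-7a to miR-7b with positions counted from 1 at the 5′ end, and miR-7b ran 1 base longer, at 24 against 23 bases. The seed of miR-375-3p was found in its own row alone.

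Mature miR-7a-5p is made from more than 1 gene, and its reads do not say which. In the GRCm39 mouse genome the sequence lies in Mir7-1 at chr13:58540655-58540677 on the minus strand, inside an intron of Hnrnpk, which is transcribed the same way and encodes an RNA-binding protein. It lies again in Mir7-2 at chr7:78538043-78538065 on the plus strand, overlapping an exon of the long non-coding RNA Gm57212. The miR-7b-5p sequence lies in Mir7b at chr17:56550017-56550040 on the plus strand, with no overlapping gene and with Fem1a as the nearest protein-coding gene, 13712 bases away. The miR-375-3p sequence lies in Mir375 at chr1:74939820-74939841 on the minus strand, overlapping an exon of the long non-coding RNA Gm70968, and 1350 bases from Cfap65.

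Levels were read on a pair of scales, because mature miRNAs took a different share of the counts in each fraction. Libraries held 3144427 to 3980687 counts in astrocytes, 3148211 to 4316748 in microglia and 1211118 to 2427384 in neurons. Mature miRNAs were 5.05 to 10.3% of these counts in astrocytes, 5.09 to 8.45% in microglia and 0.964 to 2.13% in neurons. The first scale is CPM, counts per 1000000 counts of a library, and the second, called the mature miRNA scale, is counts per 1000000 mature miRNA counts. The share was higher in KIN than in WT astrocytes, at 8.43 to 10.3% against 5.05 to 8.30%, with WT replicate 2 the WT library at the top. In bulk samples such as these, fewer cells of a type and less RNA per cell cannot be told apart.

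The fractions were checked against miRNAs that mark cell types. The myeloid miRNAs miR-142a-3p, miR-142a-5p and miR-223-3p summed to 2835 to 5914 CPM in microglia. In astrocytes they summed to 10.2 to 12.6 CPM in WT and 25.0 to 48.5 CPM in KIN, and in the neuron libraries to 42.9 to 377 CPM. The neural miRNA miR-9-5p stood at 5031 to 7941 CPM in astrocytes and at 52.7 to 218 CPM in microglia. The astrocyte libraries also held miRNAs of other cells. There the oligodendrocyte miRNAs miR-219a-2-3p and miR-338-3p summed to 830 to 2148 CPM, and endothelial miR-126a-3p stood at 165 to 441 CPM. The mural cell miRNAs miR-143-3p and miR-145a-5p summed to 197 to 310 CPM in those libraries. For the neuron label, the listed neuron miRNAs went against it, while some neural transcripts from other lists went with it. miR-124-3p, miR-128-3p and miR-138-5p, which are abundant in neurons, summed to 48.7 to 228 CPM in the neuron libraries and to 1036 to 3150 CPM in the astrocyte libraries, and on the mature miRNA scale to 5054 to 11831 and 12290 to 37936, so the neuron libraries were lower on both. Fragments of Dcx, a gene of immature neurons, had 24, 10 and 17 counts in WT neurons and 14, 13 and 9 in KIN neurons, against 0 to 2 in each glial library. Elavl4, a neuronal RNA-binding protein gene, had 3 to 8 counts in each neuron library and 0 to 2 in each glial library. Dcx comes from a list of olfactory bulb genes and Elavl4 from the miR-375 targets, so neither was a set neuron marker. The olfactory bulb list summed to 6.19 to 28.9 CPM in the neuron libraries and at most 1.52 CPM in glia, with Th at 0 in each library. Listed hypothalamic peptide transcripts had 0 counts in the neuron libraries. The neuron libraries also held 279 to 640 CPM of choroid plexus transcripts, most of it Ttr, against at most 38.4 CPM in the other fractions. They are called the neuron fraction below, by their label. Per the study's methods, 2 pairs of KIN and WT littermates were male and 1 pair was female, and the labels give no sex. Xist is the RNA of the inactive X chromosome. It had 4 or 5 counts in KIN replicate 1 of each fraction and 44 to 88 in the other KIN libraries. WT replicates 1 to 3 had 33, 102 and 25 in astrocytes and 37, 36 and 41 in microglia. In neurons they had 12, 50 and 12. KIN thus had the same low replicate in each fraction. WT replicate 2 stood out in astrocytes and neurons but not in microglia. The counts did not show the same sexes in both genotypes.

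**Figure D1:**
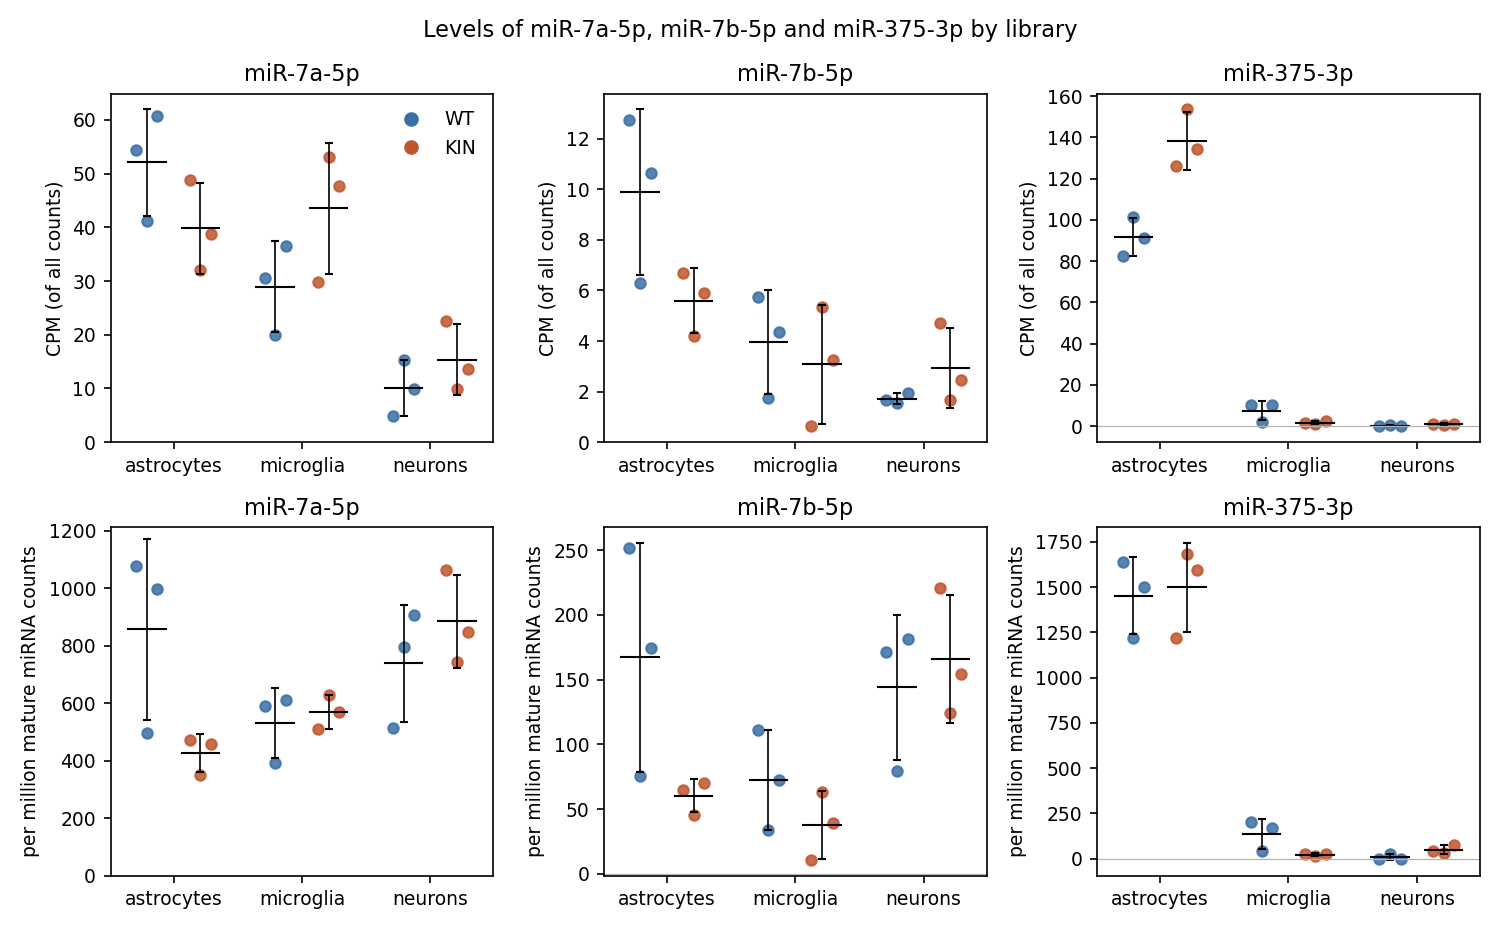
Level of each miRNA in the 18 libraries, in CPM of all counts (top row) and on the mature miRNA scale, per 1000000 mature miRNA counts (bottom row), on linear axes. Points are libraries, black lines are group means and whiskers are SD (n = 3). miR-375-3p lies at 82.7 CPM or more in each astrocyte library and at 10.4 CPM or less elsewhere, while the neuron libraries of miR-7a-5p move from the bottom of the top row to among the highest values of the bottom row.

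miR-375-3p was mostly an astrocyte fraction miRNA in these data, and which cells of that fraction held it was not tested. The WT astrocyte libraries held 260, 403 and 301 counts of it, or 91.8 ± 9.28 CPM (SD, n = 3), and the KIN astrocyte libraries 434, 551 and 500 counts, or 138 ± 14.0 CPM. The WT microglia libraries held 36, 7 and 37 counts, or 7.49 ± 4.74 CPM, and the KIN microglia libraries 5, 5 and 10 counts, or 1.69 ± 0.591 CPM. In the neuron fraction it was at or under 3 counts in each library, with 0, 1 and 0 in WT and 2, 1 and 3 in KIN. Astrocyte libraries thus lay above all others, and WT replicate 2 was the low library among WT microglia.

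The difference between the glial fractions passed the test in both genotypes. miR-375-3p was lower in microglia than in astrocytes by a log2 fold change of -3.57 ± 0.44 (SE) in WT, with an adjusted p of 0.000159 in edgeR's quasi-likelihood test, where 31.5% of all features tested were called. In KIN the log2 fold change was -6.20 ± 0.32, with an adjusted p of 2.79e-08 by edgeR and 35.3% of features called. Called here means an adjusted p (Benjamini-Hochberg over all features tested) of at most 0.05 and a log2 fold change of at least 1 in size. On the mature miRNA scale, the group means were 1453 ± 213 and 1499 ± 245 in WT and KIN astrocytes, which were 10.7 and 65.5 times those in microglia.

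Against the neuron fraction, the miR-375-3p level rests on very few counts there. From summed counts the WT astrocyte level was 434 times that of WT neurons, with an exact 95% interval of 77.8 to 17176 that covers counting error only and rests on 1 neuron count. In KIN it was 166 times that of neurons (75.9 to 452), from 6 neuron counts. WT microglia lay 35.4 times above WT neurons (6.17 to 1415), and for KIN microglia the ratio of 2.04 had an interval of 0.790 to 6.21. The filter on low counts asks for 5 counts in 2 or more libraries of a comparison, and no neuron library had 5, so miR-375-3p entered these comparisons through the glial libraries alone, and no p is given for them.

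KIN and WT astrocytes did not overlap in miR-375-3p on the CPM scale and overlapped on the other. Replicates 1 to 3 stood at 82.7, 101 and 91.4 CPM in WT and at 126, 154 and 134 CPM in KIN. The log2 fold change was 0.72 ± 0.17, with an adjusted p of 0.0302 by edgeR, which passed on p but not on size, so it was not among the 8.18% of features called. On the mature miRNA scale the WT libraries stood at 1637, 1219 and 1501 and the KIN libraries at 1220, 1682 and 1594. Scaled on mature miRNAs, the edgeR log2 fold change was 0.05 with an adjusted p of 0.892. The median log2 fold change of mature miRNAs in this comparison was 0.58, against -0.19 over all features tested, so miR-375-3p lay 0.72 against 0.58, close to the median miRNA. Leaving out 1 library at a time moved its adjusted p between 0.00237 and 0.115.

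In microglia the miR-375-3p difference had the other sign and did not pass. WT replicates 1 and 3 stood at 10.4 and 10.1 CPM, WT replicate 2 at 2.02 CPM and the KIN libraries at 1.59, 1.16 and 2.33 CPM, so the groups overlapped through that 1 WT library. The log2 fold change was -1.85 ± 0.59 with an adjusted p of 0.0944 by edgeR, where 4.35% of features were called. Without WT replicate 2 it was -2.27 with an adjusted p of 0.00312, and over all alternatives the adjusted p ran from 0.00312 to 0.330. This sign held under each scaling of the libraries that was tried.

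Most miRNAs of other neural cells were also lowest among WT microglia in replicate 2. Of 6 listed, that library was lowest for 5, miR-338-3p of oligodendrocytes being the other, and 5 had a negative log2 fold change in KIN microglia, of which 1 was called. In that comparison 4.35% of all features tested were called. The median log2 fold change was -0.11 over all features and 0.46 over mature miRNAs. miR-9-5p stood at 188, 74.0 and 218 CPM in WT microglia and at 52.7, 62.1 and 54.5 CPM in KIN microglia. Its log2 fold change was -1.24 ± 0.31 (adjusted p = 0.0559 by edgeR). The neuronal miR-124-3p fell in KIN microglia, by 1.28 on the log2 scale (SE 0.31, adjusted p = 0.0485 by edgeR). The other neuronal miRNAs did not pass, at -0.79 ± 0.32 for miR-128-3p (adjusted p = 0.159 by edgeR) and -0.45 ± 0.45 for miR-138-5p (0.616). miR-338-3p went the other way, from 16.7 to 18.0 CPM in WT microglia to 21.3 to 30.1 CPM in KIN, with a log2 fold change of 0.84 ± 0.25 (adjusted p = 0.0812 by edgeR). As a share of its own astrocyte level, the WT microglia level was 8.16% for miR-375-3p, within the range of the 6 listed. It was 11.6% for miR-128-3p, 9.80% for miR-138-5p and 4.92% for miR-124-3p. For miR-338-3p, miR-9-5p and miR-219a-2-3p it was 2.71, 2.54 and 0.610%. In KIN the share was 1.23% for miR-375-3p, and 7.04, 3.60, 2.28, 2.39, 0.889 and 0.271% for the 6 in the same order. The number of features with a count moved too, at 27713, 17884 and 29541 in WT microglia and 13941, 20324 and 19667 in KIN microglia, with WT replicate 2 within the KIN range. The part of such RNA, or of the number of features, in the miR-375-3p difference was not tested.

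The KIN effect on miR-375-3p in microglia minus that in astrocytes was -2.56 ± 0.54 on the log2 scale, the largest in size among the 3 members. Its adjusted p was 0.0533 by edgeR, which missed the threshold, in a test where 0.312% of features were called. It passed in DESeq2 (0.00647), with library totals (0.0463), without the filter on low counts (0.00122) and with the replicate block (0.0429). On scaling to mature miRNAs the adjusted p was 0.204. It was 0.000656 without WT microglia replicate 2, and it also passed without WT astrocyte replicate 2 (0.0202) and without KIN microglia replicate 1 (0.0379).

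**Figure D2:**
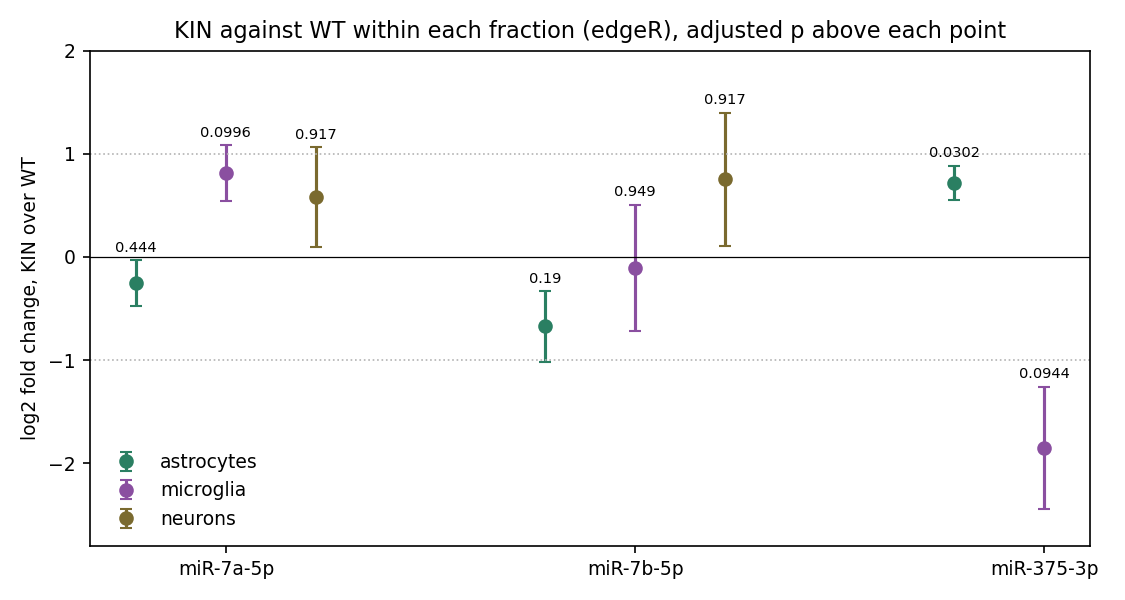
Log2 fold change of KIN over WT within each fraction, from edgeR, with whiskers of 1 SE and the adjusted p above each point (n = 3 libraries per group). Dotted lines mark log2 fold changes of 1 and -1. miR-375-3p lies at 0.72 in astrocytes and at -1.85 in microglia, no point is called, and miR-375-3p has no point in neurons because its counts there were below the filter. In neurons miR-7b-5p passed the filter through the KIN libraries alone, so its test there is not used.

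miR-7a-5p was spread over all fractions and was the more abundant of the miR-7 pair in each library. The WT astrocyte libraries held 171, 164 and 200 counts, or 52.1 ± 9.96 CPM, and the KIN astrocyte libraries 168, 115 and 144 counts, or 39.9 ± 8.46 CPM. WT microglia held 106, 69 and 134 counts (29.0 ± 8.44 CPM), and KIN microglia 94, 229 and 205 counts (43.5 ± 12.1 CPM). The neuron fraction held 6, 30 and 15 counts in WT (10.0 ± 5.19 CPM) and 53, 24 and 33 counts in KIN (15.4 ± 6.54 CPM). Ordered by mean CPM, the groups ran WT astrocytes, KIN microglia, KIN astrocytes, WT microglia, KIN neurons and WT neurons, and each group overlapped the next. On the mature miRNA scale the order was another one, with KIN neurons at 885 ± 162 first, WT astrocytes at 857 ± 315 second and KIN astrocytes at 427 ± 66.5 last.

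None of the miR-7a-5p differences between KIN and WT passed the test. In astrocytes the log2 fold change was -0.25 ± 0.22 (adjusted p = 0.444 by edgeR), and the libraries overlapped in CPM. On the mature miRNA scale they did not overlap, at 1077, 496 and 997 in WT and 472, 351 and 459 in KIN, and on that scaling the log2 fold change was -0.998 with an adjusted p of 0.0474 by edgeR, just short of the size needed for a call. In microglia the log2 fold change was 0.82 ± 0.27 (adjusted p = 0.0996 by edgeR), with WT at 30.5, 19.9 and 36.5 CPM and KIN at 29.9, 53.0 and 47.7 CPM. KIN replicate 1 was the low library there and lay within the WT range. In neurons, where 0% of features were called, it was 0.58 ± 0.48 (adjusted p = 0.917 by edgeR). At an unadjusted p under 0.05 the neuron comparison held 197 features, and DESeq2 called 0.

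The KIN effect on miR-7a-5p in microglia minus that in astrocytes was 1.09 ± 0.38 on the log2 scale. Its adjusted p was 0.254 in edgeR's test, and 0.0482 in DESeq2, the 1 alternative of 19 that put it past the threshold. The sign was opposite to that of miR-375-3p in this comparison. The other differences of KIN effects were not called: for neurons minus astrocytes, where 0% of features were called by edgeR, 598 reached an unadjusted p under 0.05 and DESeq2 called 0, miR-7a-5p had 0.71 ± 0.54 (adjusted p = 0.705) and miR-7b-5p 1.31 ± 0.69 (0.591). For neurons minus microglia, where 0.639% were called, they had -0.45 ± 0.60 (adjusted p = 0.870 by edgeR) and 0.63 ± 0.90 (0.883). The WT neuron libraries held at most 3 counts of miR-7b-5p, so both of its values rest on few counts. For miR-375-3p the fitted values were 0.94 ± 0.97 against astrocytes and 3.37 ± 1.33 against microglia. Each neuron library held at most 3 counts of miR-375-3p, so it entered these fits through the glial libraries alone. No p is given for them.

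Between fractions, miR-7a-5p told a different story by scale. In the neuron fraction against astrocytes its log2 fold change was -2.53 ± 0.47 in WT (adjusted p = 0.00663 by edgeR) and -1.63 ± 0.30 in KIN (1.53e-05), and both were called, as were 28.7% and 46.3% of all features tested. Against microglia it was -1.67 ± 0.49 in WT (adjusted p = 0.0294 by edgeR) and -1.97 ± 0.36 in KIN (5.58e-05), and both were called, as were 28.0% and 53.0% of features. The WT call against microglia was lost with library totals (adjusted p = 0.0614) and on leaving out any 1 of 4 of its 6 libraries, namely replicate 1 or 3 of either fraction (0.0629 to 0.0924). The median mature miRNA moved further, by -2.66 and -3.43 against astrocytes and -2.56 and -3.09 against microglia, in WT and KIN. Scaled on mature miRNAs, the edgeR values became -0.30 (adjusted p = 0.702) and 1.35 (8.29e-05) against astrocytes, and 0.36 (0.577) and 0.49 (0.155) against microglia, so that direction turned in 3 of the 4. That scaling moved the median of all features tested to 1.79 and 3.05 against astrocytes, from -0.50 and 0.06. miR-7a-5p was thus called lower in the neuron fraction among all small RNA counts, and was not called lower among miRNAs. Between microglia and astrocytes no difference passed, at -0.75 ± 0.29 in WT (adjusted p = 0.0625 by edgeR) and 0.26 ± 0.24 in KIN (0.422).

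**Figure D3:**
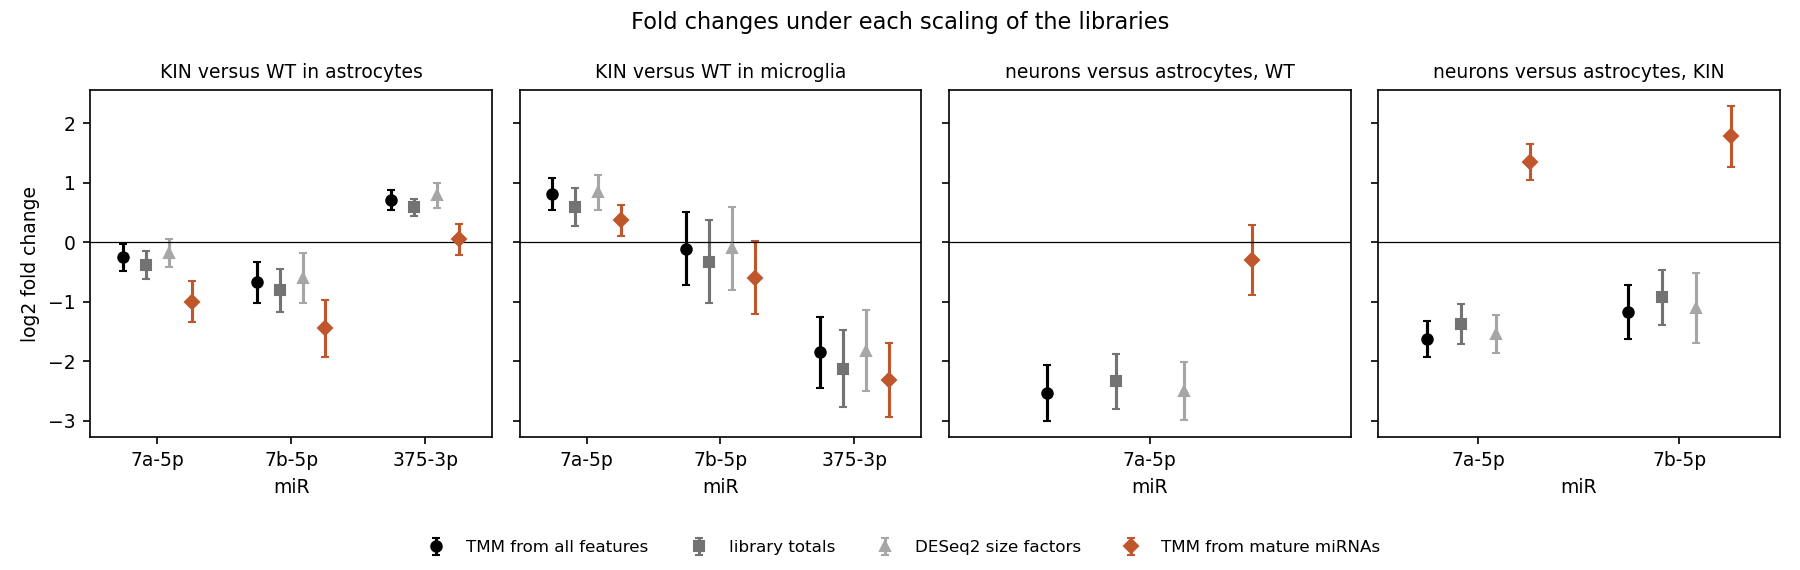
Log2 fold changes of the members with 1 SE under 4 scalings of the libraries, in 4 comparisons, leaving out members whose neuron libraries all held 3 counts or fewer. Values from TMM on all features, library totals and DESeq2 size factors lie together, while TMM on mature miRNAs moves miR-375-3p in astrocytes from 0.72 to 0.05 and miR-7a-5p in KIN neurons against astrocytes from -1.63 to 1.35.

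miR-7b-5p was the rarest member in astrocytes, with 40, 25 and 35 counts in WT (9.88 ± 3.29 CPM) and 23, 15 and 22 in KIN (5.59 ± 1.28 CPM). Microglia held 20, 6 and 16 counts in WT and 2, 23 and 14 in KIN. The neuron fraction held 2, 3 and 3 counts in WT and 11, 4 and 6 in KIN. Counts this low leave the WT and KIN libraries overlapping in CPM in each fraction.

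No KIN difference of miR-7b-5p passed the test. Its log2 fold change was -0.67 ± 0.34 in astrocytes (adjusted p = 0.190 by edgeR) and -0.11 ± 0.61 in microglia (0.949). In neurons it was 0.75 ± 0.65, but miR-7b-5p passed the filter there through the KIN libraries alone, so that test is not used. On mature miRNA scaling the astrocyte value was -1.44 with an adjusted p of 0.0420 by edgeR. On the mature miRNA scale the WT astrocyte libraries stood at 252, 75.6 and 175 and the KIN ones at 64.6, 45.8 and 70.1, which did not overlap, WT replicate 2 being the nearest to KIN. That library was also the WT astrocyte library with the highest miRNA share. In microglia the sign turned when WT replicate 1 or KIN replicate 1 was left out, to 0.13 and 0.29.

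Across fractions, the WT neuron libraries held at most 3 counts of miR-7b-5p, all under the filter, so no p is given for them. From summed counts WT astrocytes lay 5.63 times above WT neurons, with an exact 95% interval of 2.75 to 13.4 for counting error only, and WT microglia 2.32 times (1.08 to 5.73), from 8 neuron counts. In KIN, miR-7b-5p was called lower in neurons than in astrocytes, with a log2 fold change of -1.17 ± 0.46 (adjusted p = 0.0280 by edgeR). The KIN call was lost in DESeq2 (adjusted p = 0.118), with library totals (0.104) and without the filter on low counts (0.145), and scaled on mature miRNAs it turned to 1.78. It was also lost when replicate 1 or 3 of KIN astrocytes or replicate 2 or 3 of KIN neurons was left out (0.0635 to 0.113). Microglia against astrocytes gave -1.23 ± 0.45 in WT (adjusted p = 0.0524 by edgeR) and -0.68 ± 0.50 in KIN (0.300). With the replicate number as a block the WT value was -1.27 with an adjusted p of 0.0131. Neurons against microglia gave -0.58 ± 0.56 (adjusted p = 0.377 by edgeR) in KIN.

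The balance of miR-7a and miR-7b within miR-7 does not depend on how libraries are scaled. miR-7a-5p made up 84.3 ± 2.95% of miR-7 counts in WT astrocytes and 87.7 ± 0.881% in KIN astrocytes. In microglia it was 88.5 ± 4.00% in WT and 94.1 ± 3.55% in KIN, and in neurons 83.1 ± 7.96% and 84.4 ± 1.47%. Single libraries ran from 75.0% in WT neuron replicate 1, with a Wilson 95% interval of 40.9 to 92.9% on 8 counts, to 97.9% in KIN microglia replicate 1 (92.7 to 99.4% on 96 counts). The KIN and WT means differed by 3.42, 5.65 and 1.30 percentage points, and two-sided exact permutation tests gave p = 0.2, 0.2 and 0.8, where 3 libraries against 3 cannot go below 0.1. The ranges overlapped in each fraction, astrocytes included. Since the pair differs by 1 substitution, a read with an error at that base could have been counted to the other miRNA.

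**Figure D4:**
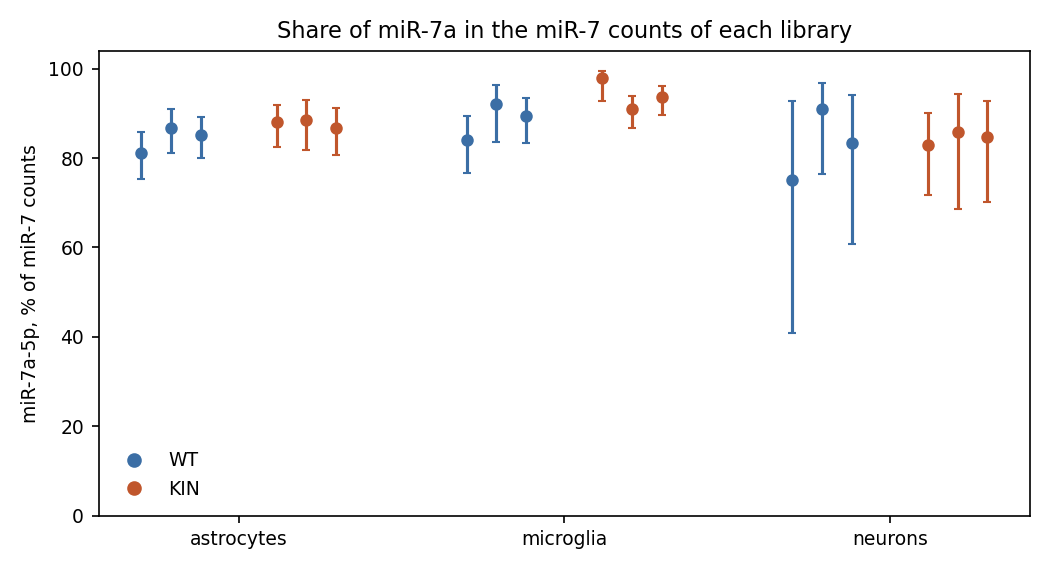
Percent of miR-7 counts (miR-7a-5p plus miR-7b-5p) that were miR-7a-5p in each library, with Wilson 95% intervals, which cover counting error only. Shares lie between 75.0 and 97.9%, the widest intervals belong to the neuron libraries, and KIN and WT overlap in each fraction.

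The opposite strands of the miR-7a hairpins, unlike the shared 5p strand, tell the Mir7-1 and Mir7-2 genes apart. Their sequences are shown because they differ inside the seed, by A7G, and further on by A10C and T21C, read from Mir7-1 to Mir7-2.
mmu-miR-7a-1-3p: cAACAAATcacagtctgccata
mmu-miR-7a-2-3p: cAACAAGTcccagtctgccaca
The Mir7-1 strand, miR-7a-1-3p, had 195 counts in astrocytes, 166 in microglia and 35 in neurons, over 6 libraries each. The Mir7-2 strand, miR-7a-2-3p, had 22 counts in neurons, where each of the 6 libraries held 1 to 6, against 3 in astrocytes and 0 in microglia. As a share of the pair, miR-7a-2-3p made 38.6% in the neuron fraction (exact 95% interval 26.0 to 52.4%, single libraries 28.6 to 46.2%), 1.52% in astrocytes (0.314 to 4.36%, single libraries 0 to 7.41%) and 0% of 166 counts in microglia (up to 2.20%). The ranges of the neuron and the glial libraries did not overlap. In the neuron fraction it had 11 counts in WT and 11 in KIN. Its counts were below the filter in each comparison, the share was given no test, and miR-7a-2-3p has its seed in common with miR-7b-3p, which had 3 counts in neurons, 2 in astrocytes and 0 in microglia. The opposite strand of miR-375, miR-375-5p, had 0 counts in each library, which allows up to 0.252 CPM in neurons and 0.142 CPM in astrocytes.

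Reads on the hairpin genes, which the table lists apart from the mature rows, followed the mature miRNAs. The Mir375 row held 40.1% of the Mir375 and miR-375-3p counts together in WT astrocytes and 40.4% in KIN. For miR-7a the Mir7-1 and Mir7-2 rows held 50.7 and 51.5%. Mir375 had a log2 fold change of 0.74 ± 0.20 in KIN astrocytes (adjusted p = 0.0412 by edgeR, not called for its size). In microglia it had 21, 5 and 28 counts in WT and 3, 2 and 8 in KIN. It passed the filter there through WT alone, so that test is not used. Mir7-1 and Mir7-2 had 0.72 ± 0.25 and 0.70 ± 0.35 in microglia (adjusted p = 0.117 and 0.259 by edgeR) and -0.14 ± 0.24 and -0.27 ± 0.27 in astrocytes (0.725 and 0.504). The Mir7-2 row held 152 counts in WT and 242 in KIN microglia, where miR-7a-2-3p had 0. The Mir7-1 and Mir7-2 rows are therefore not read as the output of each gene. All hairpin rows came from the same libraries as the mature rows, so they are not an independent measurement. Of the 8 other products of the loci, 5 were tested in each glial fraction and 0 were called between KIN and WT. Their medians were -0.14 in astrocytes and -0.15 in microglia, beside -0.19 and -0.11 over all features tested. The microglia median includes the Mir375 row.

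Regulators of miR-7 were covered by few counts. Of the rows of 7 such genes, 5 were tested between KIN and WT in astrocytes and 2 in microglia, against 8.18% and 4.35% of all features called. Cdr1os is the long non-coding RNA from whose locus the circular RNA Cdr1as comes. Summed over its transcripts it had 13, 4 and 21 counts in WT microglia and 1, 1 and 1 in KIN microglia, which did not overlap. One transcript of it was tested there, and since KIN held 1 count at most in each library, it passed the filter through WT alone and its test is not used. In astrocytes Cdr1os had 29, 14 and 18 counts in WT and 14, 11 and 11 in KIN, and the same transcript had a log2 fold change of -0.98 ± 0.44 (adjusted p = 0.145 by edgeR). Cdr1os was, like miR-375-3p, miR-9-5p and the number of features with a count, lowest among WT microglia in replicate 2. The circular RNA itself has no row matched here and is given no value.

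Cyrano had few counts, and miR-671-5p gave values that did not pass. Cyrano (Oip5os1), which triggers the decay of miR-7, had 11, 6 and 11 counts in WT astrocytes and 2, 4 and 4 in KIN astrocytes. Its KIN and WT astrocyte counts did not overlap, and it passed the filter through WT alone, so its test is not used. The number of features with a count was also lower in KIN astrocytes, at 21874 to 23544 against 27657 to 32839 in WT. How many of all features lacked overlap was not counted, here or for Cdr1os in microglia. miR-671-5p, which directs cleavage of Cdr1as, had 0.85 ± 0.29 in astrocytes (adjusted p = 0.0717 by edgeR) and 1.06 ± 0.34 in microglia (0.0935). Of the regulator rows tested, the 5 in astrocytes, that of Cyrano among them, had a median of -0.69, beside -0.19 over all features. A row that passes the filter through WT alone tends to a negative value, so nothing about the regulators is read from this median.

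Targets and processing genes were barely covered, since the libraries were made from small RNA and held only fragments of long transcripts. The list of miR-7 targets had 3 rows tested in astrocytes, with a median of -0.51 and 0 called, and none in microglia or neurons. Those rows were Egfr, a growth factor receptor, at -1.01 ± 0.58 (adjusted p = 0.242 by edgeR), and the insulin receptor substrates Irs1 and Irs2 at -0.40 ± 0.66 (0.707) and -0.51 ± 0.54 (0.541). The miR-375 targets had 2 rows tested in each fraction, Mtpn, the islet target myotrophin, and the receptor gene Igf1r, and 0 were called. Of the miRNA processing genes 5 rows were tested in astrocytes, 6 in microglia and 3 in neurons, with medians of -0.43, 0.35 and 0.14, and 0 were called. Nothing about protein or target repression can be read from these rows.

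Other miRNAs of neuroendocrine, epithelial and sensory cells did not go with miR-375-3p in KIN astrocytes. The list holds the miR-200 family and the miR-183, miR-96 and miR-182 cluster. Their summed level was 53.8 to 140 CPM in WT astrocytes and 3.49 to 4.74 CPM in KIN astrocytes, 52.4 to 92.2 CPM in WT microglia and 9.85 to 22.2 CPM in KIN microglia, and 45.2 to 65.9 CPM in WT neurons and 4.69 to 21.0 CPM in KIN neurons, so KIN lay below WT without overlap in each fraction. How many of all features lacked overlap in each fraction was not counted. The filter limits the tests of single miRNAs between KIN and WT. It was passed through WT libraries alone by 6 of 7 tested in astrocytes, 4 of 8 in microglia and 5 of 6 in neurons. Those tests are not used. The 1 other in astrocytes was called lower, where 8.18% of all features were called. In microglia 2 of the 4 others were called lower, where 4.35% of features were called. In neurons the 1 other was not called, and 0% of all features were. Transcripts of pituitary endocrine cells were near 0 in the glial fractions, with 5 of 10 genes at 0 in all 18 libraries and a summed level of at most 3.04 CPM in glia and 16.5 CPM in neurons.

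The miRNAs most like each member over the 18 libraries were also listed, as a description with no test, from 372 candidates. The points share libraries, depth and the split by fraction. For miR-375-3p the 5 highest Pearson coefficients of log2 CPM were those of miR-365-3p (0.978), miR-193b-3p (0.976), miR-34c-5p (0.971), miR-34b-5p (0.969) and miR-202-5p (0.968). The first of these, miR-365-3p, averaged 102 and 107 CPM in WT and KIN astrocytes, 9.74 and 4.80 in microglia and 1.51 and 2.51 in neurons, so it shared the high astrocyte and low neuron level. With group means taken out, the coefficients of these 5 with miR-375-3p were 0.401, 0.132, 0.686, 0.870 and 0.646. For miR-7a-5p they were let-7d-3p (0.930), miR-674-5p (0.922), miR-30e-3p (0.918), miR-345-5p (0.915) and miR-324-5p (0.914). For miR-7b-5p they were miR-1291 (0.853), miR-137-3p (0.802), miR-135a-5p (0.791), miR-202-5p (0.782) and let-7e-3p (0.781). Among the members the coefficients were lower, at 0.713 for miR-7a-5p with miR-7b-5p, 0.712 for miR-7a-5p with miR-375-3p and 0.753 for miR-7b-5p with miR-375-3p, so neither miR-7 was most like the other.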

How the data were processed

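Small RNA libraries of 3 WT and 3 KIN mice per fraction were analysed from the counts per feature that the authors deposited. Per the submitters' processing notes the tools were cutadapt 4.6, FastQC 0.11.9, MultiQC 1.23, Bowtie2 2.4.4, HTSeq 2.0.2 and DESeq2 on mm39, and the adapters carried unique molecular identifiers (UMIs) per the labels. The study's methods describe collapsing of duplicates by UMI for libraries that have them, but do not list that step for these small RNA libraries, so whether counts are independent molecules is not known. Per the study's methods, reads were placed on mature miRNAs first and on Ensembl transcripts, hairpin genes among them, in later rounds, and were counted without strand, so genes that overlap on opposite strands cannot be told apart. The deposited counts were used as they stand. The authors' own fold change and p-value columns were not used, nor were 36 columns of per-library values on other scales. The members and all lists were chosen with earlier results of these data known.

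Counts were tested with edgeR 4.0.16 (quasi-likelihood test, TMM factors) on R 4.3.3, keeping features that reached 5 counts in 2 or more libraries of the fit, separately for each comparison, with Benjamini-Hochberg adjustment over all features tested. The SE is the size of the log2 fold change divided by the square root of F. The fits were tested on simulated data. Shares were compared with two-sided exact permutation tests (scipy 1.17.1). CPM was taken over all counts in a library. The most alike miRNAs were the 5 with the highest Pearson coefficient of log2 CPM (prior count 2) among mature miRNAs that reached 5 counts in 6 or more libraries, and listed genes were named where they passed the test or held most counts. Cdr1os, Oip5os1, Egfr, Irs1, Irs2, Mtpn, Igf1r and Elavl4 were named after their values were seen. Alternatives were library totals, TMM on mature miRNAs, DESeq2 1.42.0, no filter on low counts, the miR-7 rows summed, a replicate block, 1 fit of all 18 libraries, each library left out and, chosen after seeing the data, hairpin rows added to mature rows.

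The p-values measure the spread between these libraries. Replicate numbers are shared between groups, and the labels do not say that a number marks a brain. Per the study's methods the fractions were sorted from single brains, and the main tests treat the libraries as independent. For differences of KIN effects the replicate block joins same-numbered WT and KIN libraries, which came from different mice. It therefore does not account for shared brains. Deviations of same-numbered libraries correlated above 0.1 in each of the 3 pairs for neurons against astrocytes in WT (0.134, 0.301 and 0.103), and in no other comparison did all 3 pairs.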

Additional observations from a re-analysis of the deposited data

How the results depend on the processing

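The 3 members gave 33 results. Of 468 alternative values, 422 kept their direction and their side of the threshold. Of the others, 14 lost a call, 16 gained a call and 16 changed sign. These totals include tests that are not used above. Those are miR-375-3p against neurons, miR-7b-5p in WT neurons against either glial fraction, and miR-7b-5p between KIN and WT neurons. The totals are therefore not read as a measure of how stable the used results are. Counts limit what can be seen in the neuron libraries, where miR-7b-5p had at most 11 and miR-375-3p at most 3 counts, so that fitted values of miR-375-3p, and of miR-7b-5p in WT, against neurons rest on the filter, and 3 libraries a group limit each test. Why values moved with a setting was not tested, except that a share of mature miRNA counts that differs between groups enters the mature miRNA scaling by construction.

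Scaling on mature miRNAs changed most. It gave -1.44 for miR-7b-5p in KIN against WT astrocytes, now called. Neurons against astrocytes in WT were no longer called, at -0.30 for miR-7a-5p and -0.44 for miR-7b-5p, and in KIN they turned to 1.35 and 1.78. Neurons against microglia turned to 0.36 and 0.72 in WT, to 0.49 and 1.90 in KIN, and for miR-375-3p in KIN to 0.98. The KIN effect on miR-7a-5p in neurons minus microglia turned to 0.34. Features called became 1338 (KIN against WT astrocytes, 466 before), 389 (microglia, 215 before), 26 (neurons, 0 before), 3104 and 4266 (neurons against astrocytes, WT and KIN), 3178 and 3940 (neurons against microglia, WT and KIN), 0 (KIN effect, microglia minus astrocytes, 22 before) and 112 (neurons minus microglia, 41 before). The share of calls that were higher went from 21.9 to 1.20% in KIN astrocytes and from 32.6 to 6.17% in KIN microglia. It was 11.8 and 19.3% with library totals.

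DESeq2 gave -1.10 for miR-7b-5p in KIN neurons against astrocytes, no longer called, and called the KIN effects in microglia minus astrocytes of miR-7a-5p (1.20) and miR-375-3p (-2.48). It called 343 features in microglia and 90 and 102 for the KIN effects in microglia minus astrocytes and neurons minus microglia. Library totals lost miR-7a-5p in WT neurons against microglia (-1.50) and miR-7b-5p in KIN neurons against astrocytes (-0.92), called miR-375-3p in microglia minus astrocytes (-2.71) and called 53 features there. Without the filter on low counts, miR-375-3p was called in microglia (-1.92) and in microglia minus astrocytes (-2.69), miR-7b-5p was lost in KIN neurons against astrocytes (-1.32), and miR-7a-5p in neurons minus microglia turned to 0.0049. Features called were then 426 in microglia, 75 in neurons, and 108, 5 and 100 for the KIN effects in microglia minus astrocytes, neurons minus astrocytes and neurons minus microglia. One fit of all 18 libraries called miR-375-3p in microglia (-1.83), with 159 features called in astrocytes and 334 in microglia.

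With miR-7a-5p and miR-7b-5p summed, the value beside that of miR-7b-5p alone was 0.73 in KIN against WT microglia, 0.17 in KIN microglia against astrocytes, -1.63 and -1.82 in neurons against microglia (WT and KIN, both called) and -0.33 in neurons minus microglia. Adding hairpin rows, chosen after seeing the data, called miR-7b-5p in WT microglia against astrocytes (-1.23). Pooling counts over libraries turned the neuron difference in miR-7a share to -2.47 percentage points. With the replicate number as a block, miR-7b-5p was called in WT microglia against astrocytes (-1.27) and miR-375-3p in microglia minus astrocytes (-2.55), and 49 features were called in microglia and 61 for the KIN effect in microglia minus astrocytes. The block changed no other call of a member. In no comparison did each library correlate best with its own number.

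Leaving out 1 library at a time gave ranges of -2.27 to -1.58 for miR-375-3p and -0.66 to 0.29 for miR-7b-5p in KIN against WT microglia, -1.9997 to -1.33 for miR-7a-5p in WT neurons against microglia, -1.64 to -1.002 for miR-7b-5p in KIN neurons against astrocytes, -1.03 to 0.027 for miR-7b-5p in KIN neurons against microglia, -2.94 to -2.32 for miR-375-3p in microglia minus astrocytes, -0.80 to 0.37 for miR-7a-5p in neurons minus microglia and -2.74 to 5.21 percentage points for the miR-7a share in neurons. Features called ran from 41 to 1527 in astrocytes, 0 to 940 in microglia, 0 to 52 in neurons, 911 to 1940 for WT neurons against astrocytes, 867 to 1683 for WT neurons against microglia, and 0 to 362, 0 to 2 and 0 to 120 for the KIN effects in microglia minus astrocytes, neurons minus astrocytes and neurons minus microglia.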
